A study of Mus musculus with 5 samples.

Results

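The antioxidant genes of the embryonic mouse lens were followed as 39 gene symbols of the glutathione, thioredoxin and NADPH systems, chosen by name from the 12370 symbols of the count table, and all 39 were present. RNA was sequenced from embryonic day 14 lenses in 2 N-myc knockout libraries (Mlr10-Cre+/-; N-myc loxP/loxP) and 3 control libraries. The controls were Cre-negative and carried N-myc loxP/loxP, either alone or together with c-myc loxP/loxP, and the labels used here do not say which control library had which genotype. The transgene Mlr10-Cre drives Cre recombinase in lens cells. It was carried by both knockout libraries and by no control library, so effects of the transgene and of the deletion cannot be told apart. Lenses of single animals were lysed and the lysates pooled before RNA was purified, so the p-values reflect how these pools varied.

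Glutathione is a small thiol that the lens keeps at a high concentration, where it protects long-lived crystallin proteins and membranes from oxidation. Glutathione peroxidases and peroxiredoxins reduce peroxides, glutathione reductase and thioredoxin reductases restore the oxidised thiols, and both reductases draw on NADPH, much of it made in the pentose phosphate pathway. The transcription factor NRF2, encoded by Nfe2l2, switches on many of these genes by binding antioxidant response elements together with small MAF proteins, and KEAP1 with the CUL3 ubiquitin ligase keeps NRF2 low in unstressed cells.

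Mycn, the targeted gene, had 57.3 and 81.9 CPM (read counts relative to library totals that were scaled by TMM) in the knockout libraries and 162.0, 148.4 and 140.3 CPM in the controls. Both knockout libraries lay below every control library, and Mycn was 2.16-fold lower (log2 fold change -1.11, SE 0.15, adjusted p = 0.0097 by edgeR, and 0.056 without control replicate 2). All 11 genes used as lens markers were present, and they summed to 79234 and 92754 CPM in the knockout libraries and to between 84948 and 106595 CPM in the controls, a sum of which Cryaa was the largest item. Of the 11, Bfsp1, a lens filament protein (3.07-fold), Cryab, a crystallin (1.57-fold), and Mip, a lens fibre membrane channel (1.39-fold), fell by edgeR, 0 rose and 8 did not pass, and the median log2 fold change of the list was -0.40. The list did not move as 1: 6 log2 fold changes were below 0 and 5 above, and DESeq2 called 3 lower and 1 higher. Foxe3 lay above every control in both knockout libraries (log2 fold change 0.54, adjusted p = 0.052 by edgeR). Libraries held between 13162384 and 13746416 counts. Genes of other tissues differed by list. Among 13 tested endothelial genes 0 rose and 1 fell, with a median log2 fold change of -0.03. Among 7 tested red blood cell genes 0 rose and 1 fell. Among 9 tested macrophage genes 1 rose and 0 fell, but all 9 log2 fold changes were above 0, with a median of 0.755. For 7 of these 9 genes both knockout libraries lay above every control. Of 14 tested periocular mesenchyme genes 6 rose, and all 14 log2 fold changes were above 0. Of 11 tested retina and pigment epithelium genes 8 rose and 1 fell, and 10 lay above every control in both knockout libraries. The 14 periocular mesenchyme genes of 15 listed that the table held summed to 2936 and 931.8 CPM in knockout replicates 1 and 2 and to between 720.1 and 1006 CPM in the controls. The 11 retina and pigment epithelium genes of 16 listed summed to 143.5 and 262.6 CPM in the knockouts and to between 111.8 and 120.4 CPM in the controls. The part of the lens, macrophage, mesenchyme and retina markers in the results that follow was not tested.

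The promoters of the antioxidant genes were searched for the letters of the antioxidant response element core, TGACNNNGC, on both strands, in the 250 bases before the start site (RefSeq, GRCm38.p6). RefSeq promoters were matched for 34 of the 39 genes, and 7 of these held the core in at least 1 promoter, against 11.5% of the 27025 genes in the table (10.2% of 32851 promoters). The 7 were Prdx1, Gstm5, Nfe2l2, Gclm, Txnrd1, G6pdx and Sod1. The first 3 of these promoters belong to genes that fell in the knockout lenses, and those of Gclm and G6pdx, shown for comparison, belong to genes that did not pass the test. Each is written 5′ to 3′ on the strand of its gene, and capitals mark the core.
Prdx1 (chr4:116685349-116685598, plus strand): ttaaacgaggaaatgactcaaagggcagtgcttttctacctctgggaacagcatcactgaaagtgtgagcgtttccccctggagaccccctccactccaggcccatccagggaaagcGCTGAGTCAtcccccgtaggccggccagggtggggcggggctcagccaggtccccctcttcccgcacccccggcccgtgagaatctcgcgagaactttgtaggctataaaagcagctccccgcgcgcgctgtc
Gstm5 (chr3:107895604-107895853, plus strand): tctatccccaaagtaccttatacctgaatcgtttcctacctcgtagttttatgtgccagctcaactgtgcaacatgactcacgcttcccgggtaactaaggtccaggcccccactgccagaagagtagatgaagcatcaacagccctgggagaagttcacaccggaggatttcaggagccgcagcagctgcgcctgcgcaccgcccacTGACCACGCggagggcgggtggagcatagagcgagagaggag
Nfe2l2 (chr2:75704664-75704913, minus strand): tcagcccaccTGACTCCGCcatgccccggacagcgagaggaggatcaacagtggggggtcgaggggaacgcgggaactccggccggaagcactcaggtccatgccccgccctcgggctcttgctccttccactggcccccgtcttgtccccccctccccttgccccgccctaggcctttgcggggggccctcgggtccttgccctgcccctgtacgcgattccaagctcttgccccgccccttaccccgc
Gclm (chr3:122245307-122245556, plus strand): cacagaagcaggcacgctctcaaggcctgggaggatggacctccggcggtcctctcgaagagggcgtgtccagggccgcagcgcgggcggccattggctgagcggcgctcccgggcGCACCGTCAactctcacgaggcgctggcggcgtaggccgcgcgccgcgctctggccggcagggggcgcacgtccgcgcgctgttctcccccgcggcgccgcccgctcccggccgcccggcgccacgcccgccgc
G6pdx (chrX:74428881-74429130, minus strand): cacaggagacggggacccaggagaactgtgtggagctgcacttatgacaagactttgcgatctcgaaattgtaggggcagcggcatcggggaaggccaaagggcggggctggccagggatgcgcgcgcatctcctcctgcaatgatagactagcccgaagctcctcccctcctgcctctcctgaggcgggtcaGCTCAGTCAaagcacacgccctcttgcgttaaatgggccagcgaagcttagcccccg
The core began 133 bases before the start site in Prdx1, 42 in Gstm5, 240 in Nfe2l2, 134 in Gclm and 57 in G6pdx. It therefore stood in promoters of genes that fell and of genes that did not pass the test. The MYC-type E-box CACGTG, which reads the same on both strands, was found in 1 of the 34 matched genes, Prdx4, against 6.86% of all genes (6.02% of promoters). These are matches of letters in 1 window and not sites of binding.

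Of the 39 genes, 7 were lower in the knockout lenses, 0 were higher and 32 did not pass the test (edgeR quasi-likelihood test, adjusted p under 0.05 over all 12035 genes tested, where 8.51% of genes were lower and 7.98% higher). The 7 were Prdx1, Gss, Gstm5, Gstp1, Gsto1, Sod2 and Nfe2l2, between 1.28-fold and 1.90-fold lower. They made up 17.9% of the antioxidant genes. At an unadjusted p under 0.05, 16 genes were lower and 2 higher, against 17.6% and 18.2% of all genes tested. DESeq2 called the same 7 lower and 0 higher, where it called 9.79% of all 12370 symbols lower and 9.37% higher. Both knockout libraries lay below every control library for 16 genes (27.0% of all genes tested) and above every control library for 6 (25.5%), and the groups overlapped for the other 17. The median log2 fold change was -0.18 over the antioxidant genes and 0.00 over all genes tested, and 26 of the 39 were below 0. In bulk lens RNA, fewer cells of a type and less RNA per cell cannot be told apart.

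**Figure D1:**
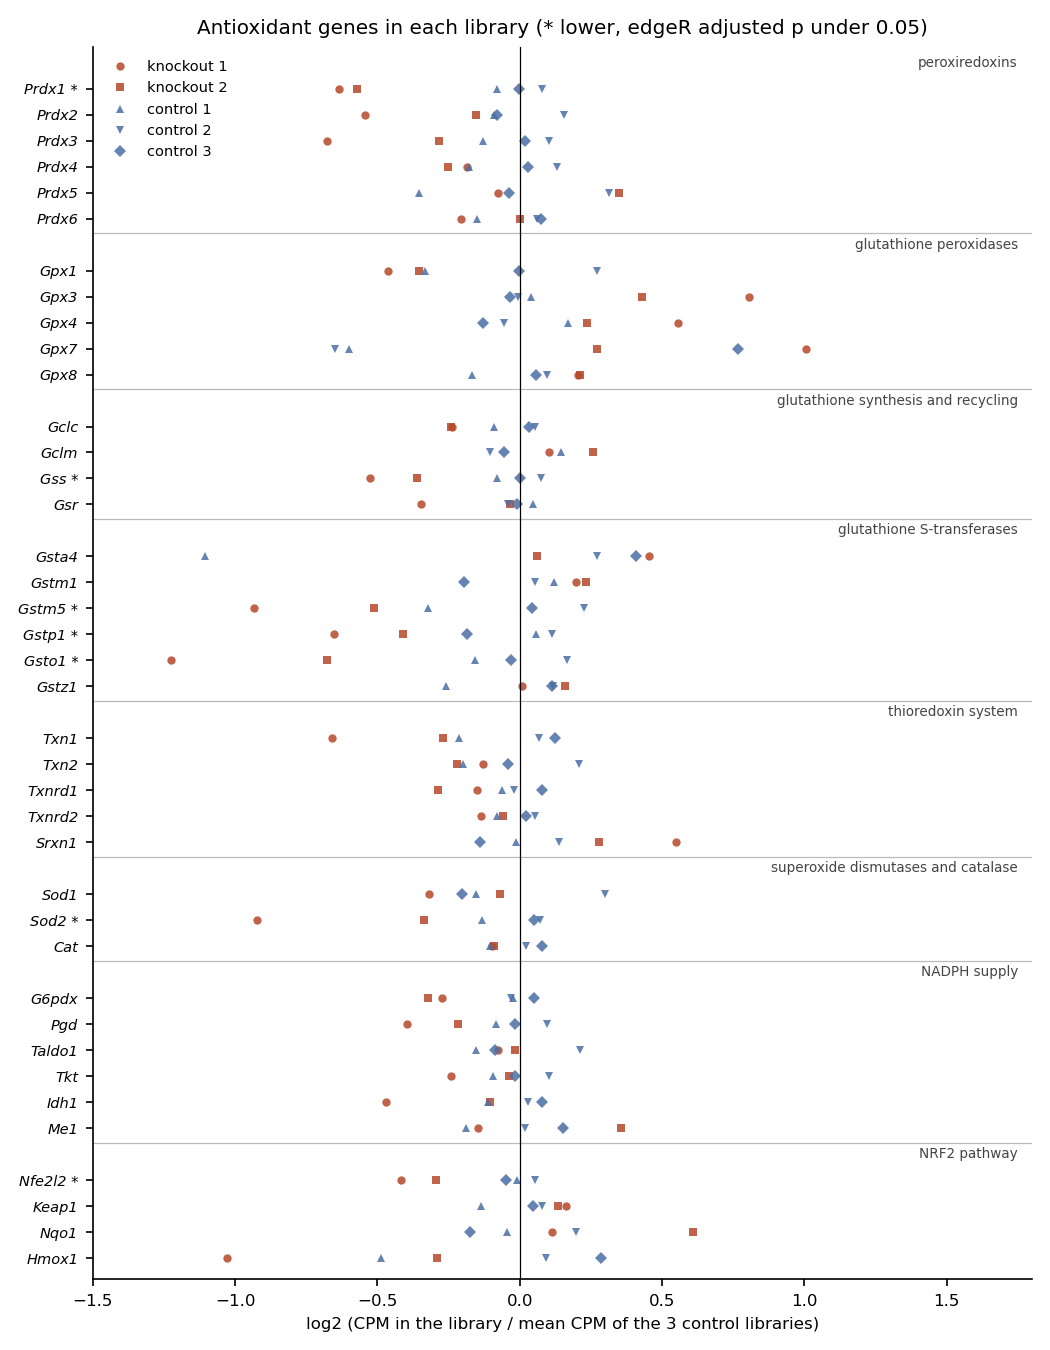
Each row is a gene and each point a library, placed by the log2 of its CPM over the mean CPM of the 3 control libraries; circles and squares are knockout replicates 1 and 2, and the other symbols are controls. An asterisk marks the 7 genes with an edgeR adjusted p under 0.05, for which both knockout libraries lie left of every control library.

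The calls changed when single libraries were left out. Without control replicate 2, edgeR called 0 of the antioxidant genes lower and 0 higher (8 lower and 2 higher at an unadjusted p under 0.05), and it called 0.142% of all genes lower. Without control replicate 3 or without knockout replicate 1 only Prdx1 was called, in fits that called 0.875% and 0.937% of all genes lower. Without knockout replicate 2 the numbers were 13 lower and 1 higher, in a fit that called 10.7% of all genes lower and 11.8% higher. Without control replicate 1, Gstp1 and Sod2 were lost and Gpx1 was called lower, in a fit that called 7.8% of all genes lower. All 7 called genes were lower in knockout replicate 1 than in knockout replicate 2, as were 28 of the 39 antioxidant genes and 53.1% of all genes tested. Against the control mean, the median log2 ratio over the 39 genes was -0.21 and -0.09 in knockout replicates 1 and 2 and -0.11, 0.08 and 0.00 in control replicates 1 to 3, so by this median knockout replicate 2 lay within the range of the controls.

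Peroxiredoxins reduce peroxides with a reactive cysteine. Prdx1, the abundant cytosolic peroxiredoxin (chromosome 4, 116685544 to 116700822, GRCm38), stood at 68.3 and 71.3 CPM in the knockout libraries and at 100.2, 111.9 and 105.9 CPM in the controls. The knockout libraries were close to each other and below all controls, and the log2 fold change was -0.60 (SE 0.084, adjusted p = 0.010 by edgeR), or 1.52-fold lower. With trends on transcript length and GC content removed from each library it was -0.32. Of the 11 alternatives tried, 10 kept the call of Prdx1, the most among the antioxidant genes. Its transcript shares a stretch of at least 200 bases at 95% identity or more with 2 annotated pseudogenes, so some reads may be assigned elsewhere or lost.

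The other 5 peroxiredoxins did not pass the test. Prdx2, a cytosolic form that red blood cells also hold in large amounts, had 113.5 and 148.6 CPM in the knockouts and 155.4, 184.3 and 156.6 CPM in the controls (log2 fold change -0.34, SE 0.13, adjusted p = 0.11 by edgeR). The mitochondrial Prdx3 had 15.8 and 20.8 CPM in the knockouts and 23.1, 27.2 and 25.7 CPM in the controls (log2 fold change -0.47, SE 0.15, adjusted p = 0.067 by edgeR). Both genes were below all controls in the 2 knockout libraries and passed when knockout replicate 2 was left out. Without knockout replicate 1 the log2 fold changes were -0.15 for Prdx2 and -0.28 for Prdx3, and after removal of length and GC trends they were -0.21 and -0.19. Prdx2 overlaps Junb and Rnaseh2a and resembles 1 annotated pseudogene, so its counts are uncertain. Of the red blood cell genes, Hbb-y, an embryonic globin, had 49.9 and 51.1 CPM in the knockouts and 58.2, 82.9 and 54.0 CPM in the controls. Hba-a1, Hba-a2, Hbb-bt and Hbb-b1 were at 0 counts in all libraries. The handling of multiply mapped reads is not known here, so these 0 counts do not show that the RNA of these globin genes was absent. The 12 red blood cell genes of 21 listed that the table held summed to 175.8 and 180.4 CPM in the knockouts and to between 223.6 and 254.1 CPM in the controls, and their part in the value of Prdx2 was not tested. Much of that lower sum came from Ermap, an erythroid membrane protein, which fell 3.42-fold, with 16.8 and 18.1 CPM in the knockouts and 56.1, 56.7 and 66.6 CPM in the controls. Slc4a1, the red cell anion exchanger, and Alas2, which starts heme synthesis in red cells, had log2 fold changes of 1.05 and 0.24 and did not pass. Prdx4 of the endoplasmic reticulum (log2 fold change -0.22), Prdx5 (0.15) and Prdx6 (-0.10) had intervals that spanned 0, the widest being -0.34 to 0.64 for Prdx5 (95% confidence interval of the log2 fold change). Prdx5 overlaps Trmt112 and shares a near-identical stretch with it, so reads of the 2 genes may not be separable.

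None of the 5 glutathione peroxidases was called by edgeR or DESeq2 (1 lower and 1 higher at an unadjusted edgeR p under 0.05). Gpx1, the cytosolic selenoenzyme, had 119.2 and 128.7 CPM in the knockouts and 130.5, 198.3 and 164.2 CPM in the controls, with a log2 fold change of -0.41 (SE 0.16, adjusted p = 0.11 by edgeR). The controls spread widely and the nearest control lay just above the knockouts. Gpx3, the secreted form, had 7.73 and 5.95 CPM in the knockouts and 4.55, 4.40 and 4.33 CPM in the controls, with a log2 fold change of 0.63 (SE 0.21, adjusted p = 0.075 by edgeR). Gpx3 was higher in knockout replicate 1, the library with the higher mesenchyme sum, than in knockout replicate 2. So were Gpx4 and Gpx7, while Gpx1 and Gpx8 were lower there, and the part of mesenchyme in these values was not tested. The log2 fold change of Gpx3 was 0.43 without knockout replicate 1 and 0.80 without knockout replicate 2. Gpx4, which reduces lipid peroxides in membranes, had 7.09 and 5.67 CPM in the knockouts and 5.41, 4.63 and 4.40 CPM in the controls (log2 fold change 0.41, SE 0.22, adjusted p = 0.22 by edgeR, and 0.24 on the log2 scale without knockout replicate 1). Both knockout libraries were above the controls for Gpx3, Gpx4 and Gpx8. Gpx7 had 30 and 18 counts in the knockouts and 9, 9 and 24 in the controls, and these ranges overlapped. The median log2 fold change of the 5 was 0.41, the only positive one among the 8 roles.

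Glutathione is made in 2 steps, by glutamate-cysteine ligase (catalytic subunit Gclc, modifier subunit Gclm) and by glutathione synthetase (Gss). Gss (chromosome 2, 155563181 to 155592810) stood at 226.5 and 253.9 CPM in the knockouts and at 308.4, 343.9 and 326.2 CPM in the controls. The groups were apart by more than the spread within either, and Gss was 1.36-fold lower (log2 fold change -0.44, SE 0.093, adjusted p = 0.024 by edgeR). Gclc did not pass, with 28.6 CPM in each knockout library and 31.7, 35.1 and 34.5 CPM in the controls (log2 fold change -0.24, SE 0.099, adjusted p = 0.12 by edgeR). Gclm had 45.4 and 50.4 CPM in the knockouts and 46.7, 39.3 and 40.6 CPM in the controls, overlapping ranges with a log2 fold change of 0.18 (SE 0.11). Gsr, the glutathione reductase, had a log2 fold change of -0.18 (95% confidence interval -0.45 to 0.09). Gss overlaps Acss2 in the GENCODE vM21 gene models, and Acss2 had a log2 fold change of 0.40 (SE 0.19, adjusted p = 0.17 by edgeR). The part of the overlap in the value of Gss was not tested.

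Glutathione S-transferases couple glutathione to electrophiles, and 3 of the 6 fell. Gstm5, a mu-class enzyme (chromosome 3, 107895821 to 107898686), had 25.0 and 33.6 CPM in the knockouts and 38.3, 56.0 and 49.3 CPM in the controls (1.63-fold lower, log2 fold change -0.71, SE 0.18, adjusted p = 0.039 by edgeR). Gstp1, the pi-class enzyme (chromosome 19, 4035407 to 4037985), had 36.6 and 43.3 CPM in the knockouts and 59.8, 62.2 and 50.5 CPM in the controls (1.44-fold lower, log2 fold change -0.53, SE 0.12, adjusted p = 0.031 by edgeR). Gsto1, an omega-class enzyme that also reduces dehydroascorbate (chromosome 19, 47854970 to 47864790), had 4.08 and 5.95 CPM in the knockouts and 8.54, 10.7 and 9.34 CPM in the controls. Its fall of 1.90-fold was the largest of the 7 (log2 fold change -0.92, SE 0.22, adjusted p = 0.033 by edgeR), on 57 and 83 counts in the knockouts and 109, 141 and 123 in the controls. For each of the 3 genes knockout replicate 1 was the lowest library and no knockout library reached a control. Gstm5 overlaps 4933431E20Rik, which had a log2 fold change of -0.34 (SE 0.11, adjusted p = 0.073 by edgeR), and without a known strand setting reads in the overlap cannot be assigned to either gene. Gstp1 shares a near-identical stretch with 2 other annotated genes, 1 of them a pseudogene.

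The other 3 transferases had log2 fold changes above 0 and did not pass. Gstm1, also of the mu class, had 77.0 and 78.9 CPM in the knockouts and 73.1, 69.7 and 58.6 CPM in the controls (log2 fold change 0.22, SE 0.11, adjusted p = 0.18 by edgeR). Gstm1 thus lay above the controls in both knockout libraries where Gstm5 lay below them. Gstz1, which acts in tyrosine breakdown, had a log2 fold change of 0.08 (95% confidence interval -0.23 to 0.40). Gsta4, which conjugates the lipid aldehyde 4-hydroxynonenal, had 71 and 54 counts in the knockouts and 22, 59 and 65 in the controls, and control replicate 1 stood apart.

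**Figure D2:**
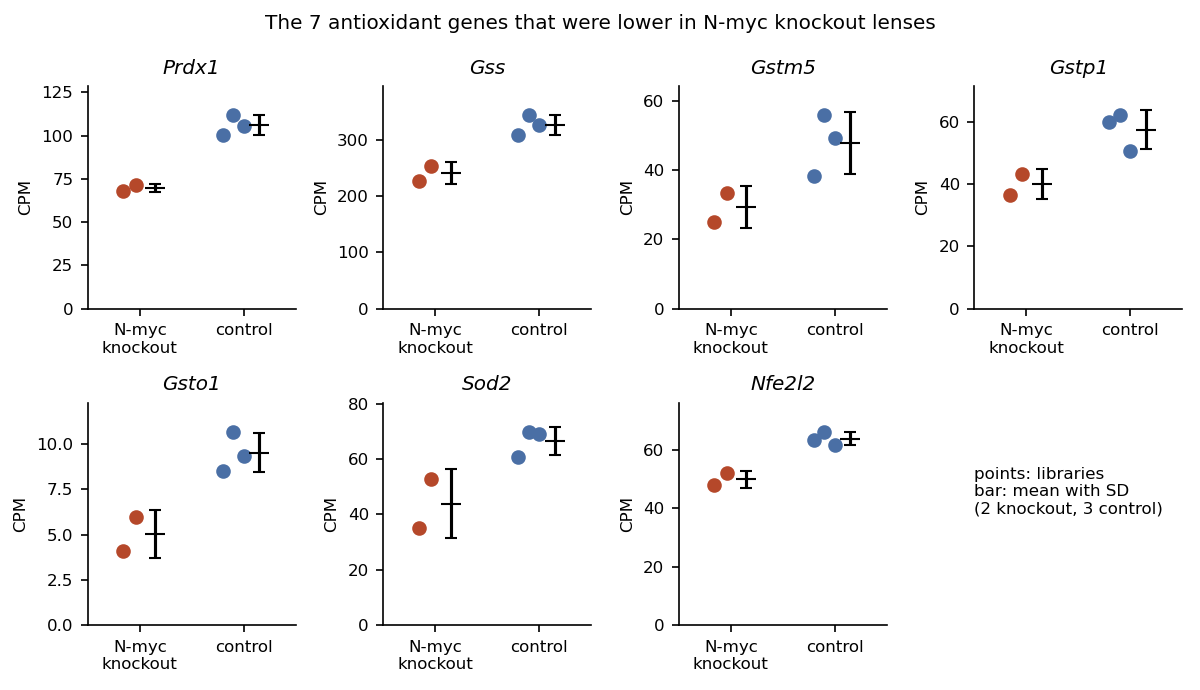
CPM of the 7 genes that were lower, with knockout libraries left and control libraries right in each panel and bars for mean and SD (2 knockout, 3 control libraries). In every panel the 2 knockout points lie below the 3 control points, from 68.3 and 71.3 against 100.2 to 111.9 CPM for Prdx1 to 4.08 and 5.95 against 8.54 to 10.7 CPM for Gsto1.

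The thioredoxin system had 0 of 5 genes called by edgeR or DESeq2 (2 lower and 1 higher at an unadjusted edgeR p under 0.05). Txn1, cytosolic thioredoxin, had 23.1 and 30.3 CPM in the knockouts and 31.5, 38.3 and 39.8 CPM in the controls (log2 fold change -0.45, SE 0.15, adjusted p = 0.075 by edgeR). It was -0.16 after removal of length and GC trends and -0.27 without knockout replicate 1, and Txn1 resembles 1 annotated pseudogene. Txnrd1, the cytosolic selenoprotein that reduces it, had 77.1 and 70.2 CPM in the knockouts and 82.0, 84.3 and 90.5 CPM in the controls (log2 fold change -0.22, SE 0.087, adjusted p = 0.11 by edgeR). Txn1 and Txnrd1 lay below all controls. The mitochondrial partners Txn2 and Txnrd2 had log2 fold changes of -0.18 (95% confidence interval -0.47 to 0.12) and -0.10 (-0.41 to 0.22). Srxn1, sulfiredoxin, which repairs overoxidised peroxiredoxins, had 15.0 and 12.5 CPM in the knockouts and 10.2, 11.3 and 9.34 CPM in the controls (log2 fold change 0.42, SE 0.16, adjusted p = 0.11 by edgeR). Srxn1 thus had the opposite sign to Prdx1, and its 2 knockout values were above every control value.

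Sod2, the mitochondrial manganese superoxide dismutase (chromosome 17, 13006846 to 13040063), had 35.1 and 52.7 CPM in the knockouts and 60.8, 70.0 and 69.1 CPM in the controls. Both knockout libraries were below the controls but far from each other, and the log2 fold change of -0.60 (SE 0.16, adjusted p = 0.044 by edgeR) was -0.34 without knockout replicate 1 and -0.92 without knockout replicate 2. It passed in 5 of the 11 alternatives, and in neither the fit with library totals as the only scaling nor that without length and GC trends. Sod1, the cytosolic copper-zinc enzyme, had 26.1 and 31.0 CPM in the knockouts and 29.2, 40.1 and 28.3 CPM in the controls. Cat, catalase, had 62.4 and 62.7 CPM in the knockouts and 62.0, 67.7 and 70.4 CPM in the controls. The groups overlapped for both, with log2 fold changes of -0.19 (95% confidence interval -0.58 to 0.20) for Sod1 and -0.09 (-0.29 to 0.11) for Cat. Of the 5 mitochondrial members (Prdx3, Prdx5, Txn2, Txnrd2 and Sod2), Sod2 was the 1 called, and 4 of the 5 were below 0.

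For NADPH supply, 0 of 6 genes were called by edgeR or DESeq2 (3 lower and 0 higher at an unadjusted edgeR p under 0.05). G6pdx, glucose-6-phosphate dehydrogenase at the entry of the pentose phosphate pathway, had 29.1 and 28.2 CPM in the knockouts and 34.6, 34.5 and 36.5 CPM in the controls (log2 fold change -0.30, SE 0.095, adjusted p = 0.064 by edgeR). Pgd, the next NADPH-producing enzyme of that pathway, had 54.3 and 61.5 CPM in the knockouts and 67.4, 76.4 and 70.6 CPM in the controls (log2 fold change -0.30, SE 0.096, adjusted p = 0.063 by edgeR). These 2 oxidative-branch genes were below all controls by similar amounts and stayed above the threshold. G6pdx was called lower after removal of length and GC trends, and Pgd without knockout replicate 2. In the branch that recycles the sugars, Tkt, transketolase, had a log2 fold change of -0.14 (95% confidence interval -0.37 to 0.10) and Taldo1, transaldolase, one of -0.05 (-0.33 to 0.24). Idh1, the cytosolic isocitrate dehydrogenase, had 111.8 and 144.0 CPM in the knockouts and 143.1, 157.7 and 163.3 CPM in the controls (log2 fold change -0.27, SE 0.12, adjusted p = 0.14 by edgeR), which was -0.04 after removal of length and GC trends and -0.10 without knockout replicate 1. Me1, malic enzyme, had a log2 fold change of 0.13 with overlapping ranges.

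Nfe2l2 (chromosome 2, 75675513 to 75704641) had 47.9 and 52.1 CPM in the knockouts and 63.6, 66.3 and 61.9 CPM in the controls. It fell 1.28-fold, the smallest of the 7 falls (log2 fold change -0.35, SE 0.086, adjusted p = 0.033 by edgeR), with narrow spread in both groups. The call was lost with library totals as the only scaling (adjusted p = 0.056 by edgeR) and with length and GC trends removed (log2 fold change -0.22, adjusted p = 0.099 by edgeR), over a range of 0.016 to 0.20 in the 11 alternatives. Keap1, the sensor that marks NRF2 for degradation, had 43.0 and 42.1 CPM in the knockouts and 35.0, 40.5 and 39.7 CPM in the controls (log2 fold change 0.15, SE 0.10, adjusted p = 0.32 by edgeR). Nqo1, a quinone reductase and a widely used NRF2 target, had 22 and 31 counts in the knockouts and 18, 22 and 17 in the controls, too few to narrow its interval below -0.44 to 1.20 on the log2 scale. Hmox1, heme oxygenase 1, also an NRF2 target, had 8.30 and 13.8 CPM in the knockouts and 12.1, 18.1 and 20.6 CPM in the controls (log2 fold change -0.61, SE 0.28, adjusted p = 0.16 by edgeR). Macrophages also make Hmox1. The 10 macrophage genes of 15 listed that the table held summed to 58.8 and 58.7 CPM in the knockouts and to between 28.8 and 52.1 CPM in the controls, and their part in the value of Hmox1 was not tested. Without knockout replicate 1 the log2 fold change of Hmox1 was -0.29.

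Levels of different genes were compared as CPM per kb of the longest annotated transcript. Where the lens expresses a shorter transcript this measure is too low, so the order of genes depends on the length used. Gpx1, Tkt, Prdx2 and Gss were the 4 highest of the 39 in both groups, at 115.6, 106.2, 81.3 and 73.7 CPM per kb in the knockouts and 153.3, 116.7, 102.6 and 100.1 CPM per kb in the controls. In the knockouts, the SD was 6.24 for Gpx1 and 10.5 for Tkt (n = 2), and in the controls 31.6 and 8.01 (n = 3), so neighbours in this order did not all differ beyond their spread. Nqo1 and Gpx7 were the 2 lowest in both groups, at 1.22 and 1.33 CPM per kb in the knockouts and 0.94 and 0.83 in the controls. Gpx4 ranked 31 of 39 in the knockouts and 32 in the controls, at 6.41 and 4.84 CPM per kb. Its transcript shares a near-identical stretch with 2 annotated pseudogenes, and the handling of multiply mapped reads is not known here, so its level is uncertain. Near-identical stretches of other annotated genes were also found for Gstm1, Sod1, Me1 and Keap1, and overlaps with other genes of the table for Gstz1, Txnrd1, Txnrd2, Sod1 and G6pdx, and the values of these genes carry the same uncertainty. Of the 7 genes that fell, Gss, Gstp1, Prdx1 and Gstm5 were among the 10 highest in both groups and Gsto1 ranked 37 in the knockouts and 30 in the controls.

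**Figure D3:**
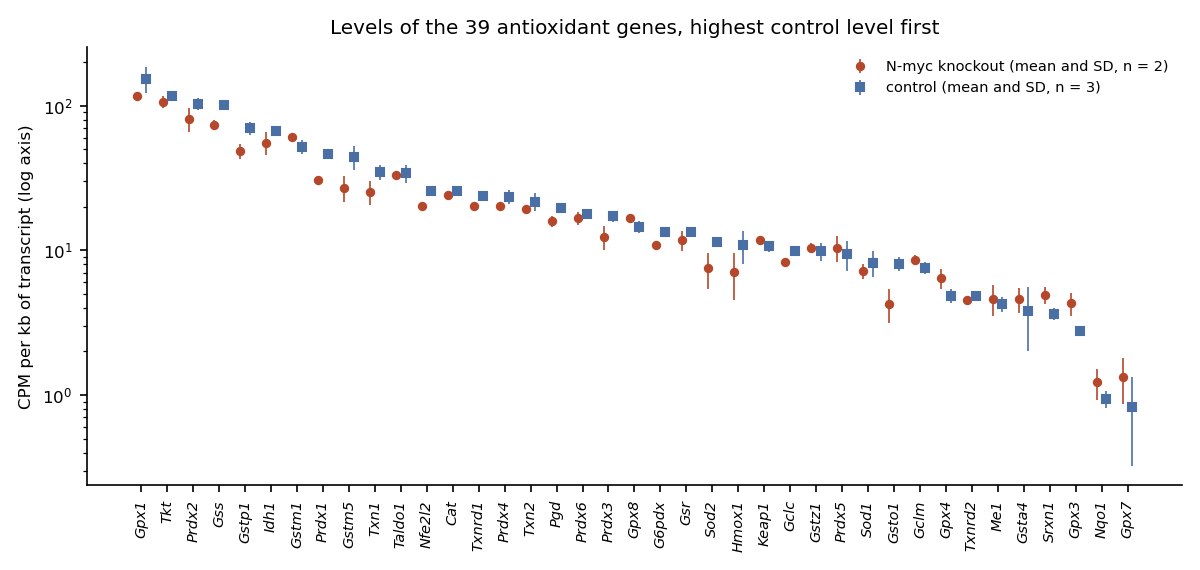
Mean CPM per kb of transcript (log axis) with SD for the 39 genes, ordered by the control mean, with 2 knockout libraries (circles) and 3 control libraries (squares). Levels run from 115.6 CPM per kb in the knockouts and 153.3 in the controls for Gpx1 down to 1.22 in the knockouts for Nqo1 and 0.83 in the controls for Gpx7.

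The 7 genes that fell had a median transcript GC content of 48.2%, against 49.7% for all 39 and 49.7% for all genes tested. Sod2 (42.2%) and Prdx1 (42.3%) were the lowest of the 7 and Gstp1 (55.8%) the highest. After removal of length and GC trends, 5 of the 7 calls were kept (Prdx1, Gss, Gstm5, Gstp1 and Gsto1), and G6pdx was added as lower and Gpx8 as higher. Of the 5 members that are selenoproteins (Gpx1, Gpx3, Gpx4, Txnrd1 and Txnrd2), 0 were called by edgeR or DESeq2 (2 lower and 1 higher at an unadjusted edgeR p under 0.05), and their median log2 fold change was -0.10.

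Around these members, 8 further lists of pathway genes held 151 different tested genes, of which 17 fell and 4 rose. Over all genes tested 8.51% fell and 7.98% rose, and these shares are the background for the counts of each list below. In glutathione turnover and transport 3 of 18 fell and 0 rose. Ggct, which releases amino acids from gamma-glutamyl peptides in glutathione breakdown, had 11.7 and 9.83 CPM in the knockouts and 18.9, 31.6 and 28.8 CPM in the controls (2.45-fold lower, log2 fold change -1.29, SE 0.23, adjusted p = 0.016 by edgeR). Lap3, a leucine aminopeptidase that also cleaves cysteinylglycine, had 36.6 and 38.9 CPM in the knockouts and 63.7, 64.8 and 66.5 CPM in the controls (1.72-fold lower, log2 fold change -0.79, SE 0.085, adjusted p = 0.0059 by edgeR), and it was called in all 11 alternatives. Slc7a11, the cystine importer that supplies cysteine for glutathione, had 145.4 and 219.0 CPM in the knockouts and 278.4, 260.5 and 293.8 CPM in the controls (1.52-fold lower, log2 fold change -0.61, SE 0.16, adjusted p = 0.041 by edgeR). Its knockout libraries were far apart, and the log2 fold change was -0.34 without knockout replicate 1 and -0.93 without knockout replicate 2. Slc7a11 was called in 5 of the 11 alternatives. The other 15 genes of the list did not pass, 8 of the 18 had log2 fold changes above 0, and the median was -0.13. At an unadjusted edgeR p under 0.05, 5 were lower and 2 higher, and DESeq2 called 4 lower and 1 higher. The highest log2 fold change of the list, 1.93, belonged to a gene that did not pass by edgeR.

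**Figure D4:**
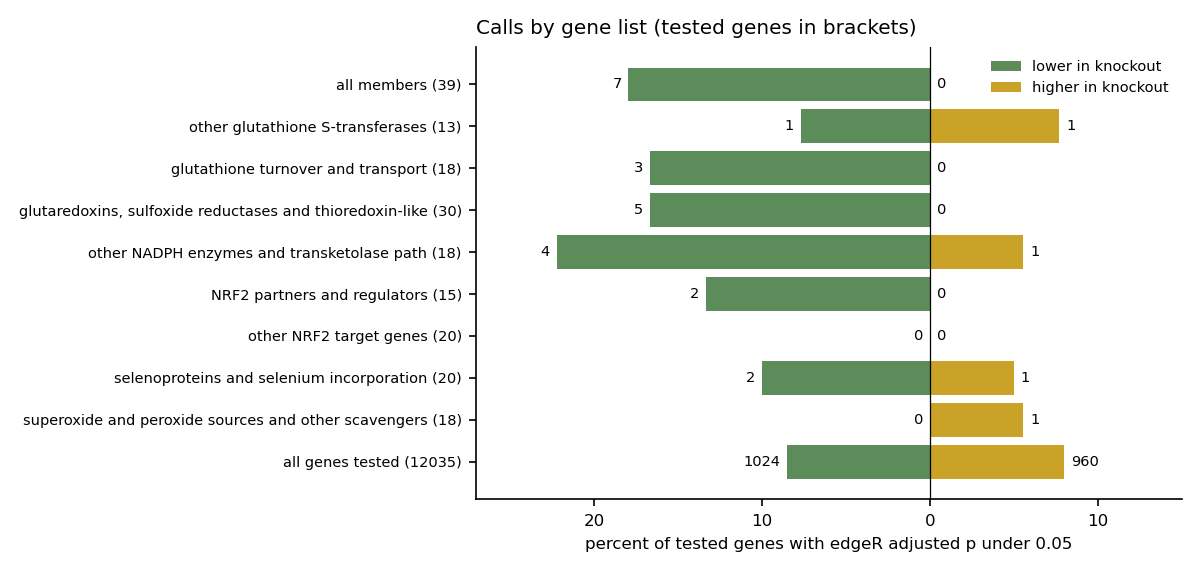
Percent of the tested genes of each list with an edgeR adjusted p under 0.05, lower to the left and higher to the right of 0, with the number of genes beside each bar and the number tested in brackets. The 39 antioxidant genes have 7 lower and 0 higher, and all genes tested have 1024 lower and 960 higher.

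Among 30 glutaredoxins, methionine sulfoxide reductases and thioredoxin-like genes, 5 fell and 0 rose. Glrx2, a mitochondrial glutaredoxin, had 26.8 and 31.4 CPM in the knockouts and 43.7, 50.8 and 51.8 CPM in the controls (1.67-fold lower, log2 fold change -0.74, SE 0.12, adjusted p = 0.013 by edgeR). Tmx1 (1.55-fold), Tmx3 (1.37-fold) and Ero1l (1.30-fold), which act in thiol chemistry of the endoplasmic reticulum, were also lower, as was Txnl1, a thioredoxin-like protein. After removal of length and GC trends, Tmx1, Tmx3 and Ero1l had log2 fold changes of -0.34, -0.04 and -0.18 and were not called. Among 18 other NADPH and pentose phosphate genes, 4 fell and 1 rose. The 4 were Idh2, the mitochondrial isocitrate dehydrogenase (1.26-fold lower), Rpe (1.47-fold) and Pgls of the pentose phosphate pathway, and Mthfd1l of mitochondrial folate metabolism (1.32-fold). Aldh1l1, a cytosolic folate enzyme that makes NADPH, rose 1.56-fold. Rpe and Aldh1l1 were not called after removal of length and GC trends (log2 fold changes -0.21 and 0.42).

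Of 15 NRF2 partners and regulators, 2 fell and 0 rose by edgeR, and DESeq2 called 2 lower and 1 higher. The log2 fold changes were below 0 for 6 of the 15 and above 0 for 9, with a median of 0.05. Cul3 had 341.1 and 423.5 CPM in the knockouts and 543.0, 538.7 and 602.0 CPM in the controls (1.47-fold lower, log2 fold change -0.55, SE 0.12, adjusted p = 0.024 by edgeR), and -0.26 in the fit without length and GC trends, where it was not called. Park7, which encodes the redox-sensitive protein DJ-1, had 44.3 and 55.2 CPM in the knockouts and 69.8, 81.4 and 75.4 CPM in the controls (1.52-fold lower, log2 fold change -0.60, SE 0.12, adjusted p = 0.020 by edgeR). Of 20 other NRF2 target genes edgeR called 0 (2 lower and 1 higher at an unadjusted p under 0.05) and DESeq2 called 1 lower. Ftl1, the ferritin light chain, had 180.8 and 194.6 CPM in the knockouts and 214.6, 313.8 and 260.2 CPM in the controls (log2 fold change -0.49, SE 0.15, adjusted p = 0.058 by edgeR), and Akr1a1, an aldehyde reductase, had a log2 fold change of -0.27 (SE 0.095, adjusted p = 0.079 by edgeR).

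Among 13 further transferases and proteins with a transferase-like fold, Eef1g, a translation elongation factor subunit, fell 1.50-fold and Clic1, a chloride channel protein, rose 1.27-fold. The other 11 did not pass, 10 of the 13 log2 fold changes were above 0 and 3 below, and the median was 0.07. Of 20 selenoprotein and selenium genes 2 fell and 1 rose. Selenot was 1.68-fold lower and Selenoi, an enzyme of phospholipid synthesis, 1.31-fold lower, while Selenon was 1.33-fold higher. Selenot and Selenon were not called after removal of length and GC trends (log2 fold changes -0.43 and 0.15). Of 18 sources of superoxide and other scavengers, 0 fell and 1 rose. That gene was Mt1, a metallothionein, with 1325 and 1356 counts in the knockouts and 2, 5 and 6 in the controls. Of these 151 genes, Lap3 was the 1 called lower and Mt1 the 1 called higher without control replicate 2. Without control replicate 3 the numbers were 1 and 1, and without knockout replicate 1 they were 2 and 1.

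**Figure D5:**
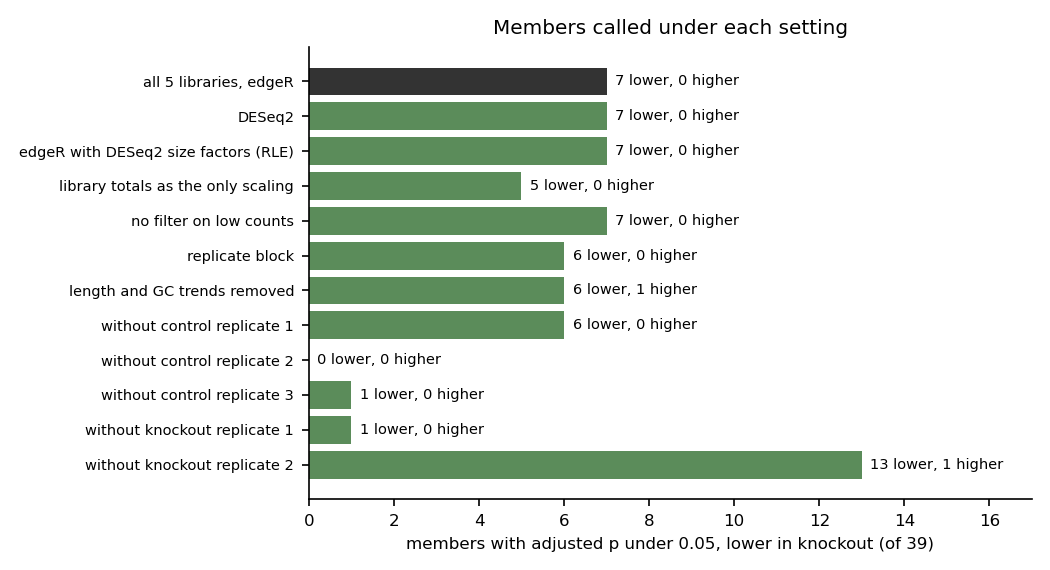
Number of the 39 antioxidant genes called lower with all 5 libraries and edgeR (top bar) and under each of 11 alternatives, with the numbers lower and higher beside each bar. The number is 7 in the top bar and between 0 (without control replicate 2) and 13 (without knockout replicate 2) below it.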

How the data were processed

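Per the file headers and the values, the authors deposited 1 table of raw counts for 12370 gene symbols in 5 libraries, of which 61 had 0 counts in all. The build mm10, DESeq2, HTSeq 0.6.1, TopHat2 2.0.13, Cufflinks 2.2.1 and Trim Galore 0.3.7 are listed, per the submitters' processing notes, without their roles. Strand setting and annotation are not known here. Groups came from the sample titles.

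Counts were fitted in R 4.3.3 with edgeR 4.0.16 over the whole table: filterByExpr by group (minimum count 10, 335 symbols removed), TMM, glmQLFit and glmQLFTest with no covariate, and Benjamini-Hochberg adjustment over 12035 genes at 0.05 (biological coefficient of variation 14.1%). The SE is the log2 fold change over the square root of F, and 95% intervals use the fit's degrees of freedom. Scripts were tested on simulated data. Chi-square over degrees of freedom was 10.1 to 23.7 between libraries of a group (genes with at least 10 counts), so none agreed within sampling noise. The 11 alternatives were DESeq2 1.42.0, its size factors, library totals, no filter, a replicate block, length and GC trends (loess on the longest GENCODE vM21 transcript, known for 98.1% of genes) and leaving out each library.

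Members and lists were chosen with earlier results of these data known. All members were described; of each other list up to 4 called genes by smallest adjusted p were named, or the 2 with the smallest p where none was called. Pgls and Txnl1, outside this rule, were named after their values were seen.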

Additional observations from a re-analysis of the deposited data

How the results depend on the processing

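The numbers of antioxidant genes called lower and higher ran from 0 to 13 and from 0 to 1 when 1 library was left out. The same 7 genes were called with DESeq2, with its size factors in edgeR and with no filter. With library totals as the only scaling 5 of the 7 were kept (without Sod2 and Nfe2l2), and with length and GC trends removed 5 were kept and 1 gene was called higher. Over all genes, 637 were lower and 1511 higher with library totals only against 1024 and 960 with TMM, and the median of all genes was then 0.09 on the log2 scale; 432 were higher (739 lower) with the trends removed. Leaving out 1 library gave 17 to 1291 lower and 21 to 1426 higher. The other pathway genes then had 1 to 23 lower and 1 to 5 higher (17 and 4 with all libraries). With library totals only, 11 of them were lower and 7 higher, in a fit that called 5.29% of all genes lower and 12.6% higher. With DESeq2 22 of them were lower and 7 higher, against 9.79% and 9.37% of all symbols. The cause of these differences was not tested. The log2 fold change changed sign for genes that were not called in these settings: with the trends removed it was 0.092 for Prdx4, 0.022 for Taldo1 and -0.166 for Keap1, and with library totals only 0.038 for Taldo1. Leaving out each library gave -0.077 to 0.350 for Prdx5, -0.207 to 0.003 for Prdx6, -0.065 to 0.534 for Gsta4, -0.025 to 0.159 for Gstz1, -0.318 to 0.001 for Sod1, -0.112 to 0.085 for Taldo1 and -0.148 to 0.359 for Me1.

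Replicate numbers 1 and 2 occur in both groups, but nothing in the labels ties equal numbers together, and deviations from the group means correlated at -0.10 and 0.00. With the replicate number as a block, 522 genes were lower and 473 higher, 6 of the 7 antioxidant genes were kept (Nfe2l2 was lost, adjusted p = 0.054 by edgeR), and 1 other pathway gene was higher. With 2 knockout libraries, genes of few counts such as Nqo1 and Gpx7 had intervals too wide to show a change of moderate size.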
